A study of Mus musculus with 6 samples.

Results

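A set of 10 integrin subunit genes was examined in RAW264.7, a mouse macrophage-like cell line, grown here in DMEM with serum. They were taken by gene name: Itgam, Itgb2, Itgal, Itgax, Itga4, Itga5, Itgav, Itgb1, Itgb5 and Itgb7, which are 10 of the 54532 genes in the deposited table. All 10 passed the filter on low counts. RNA was sequenced in 6 libraries. Of these, 3 are labelled as an ERMAP knockdown by shRNA (short hairpin RNA), and 3 are labelled WT with no shRNA recorded, called control below. ERMAP is an erythroid membrane protein of the butyrophilin family. The lentivirus that carries the shRNA is named in the treatment text of both groups, so the labels do not settle whether control cells were transduced. No label gives a non-targeting shRNA, the number of shRNA sequences, or whether replicates were separate cultures. The p-values below therefore rest on differences among these 6 libraries that could be technical in origin.

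Integrins are cell surface receptors made of 1 alpha and 1 beta chain, and a chain reaches the surface only with a partner. They bind matrix proteins or counter-receptors on other cells, and their short tails connect to talin, kindlin and actin. Macrophages are known for the β2 family, which includes αMβ2 (Mac-1 or complement receptor 3), αLβ2 (LFA-1) and αXβ2 (complement receptor 4). Fibronectin is bound by α5β1 and, with VCAM-1, by α4β1, while α4β7 binds MAdCAM-1 on vessels of the gut and αvβ5 binds vitronectin.

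Ermap itself was not lower in the shRNA group, which goes against that label. Its counts were 10, 21 and 14 under the ERMAP shRNA label, against 12, 12 and 3 in control libraries, a log2 difference of 0.81 (edgeR adjusted p = 0.929, SE 0.52). It was 0.41 without control replicate 3, the library with 3 counts, and 0.52 without replicate 2 of the shRNA group, and limma-voom with library quality weights called it higher (1.66, adjusted p = 0.0382). Every difference below is that of libraries labelled ERMAP shRNA against control, with no decrease of Ermap mRNA measured. Summed counts per library ranged from 13447021 to 16602734. Of 8 macrophage markers 7 passed the filter, and their summed level was 7240 to 7412 CPM in libraries labelled ERMAP shRNA and 7035 to 7327 CPM in control libraries. Csf1r, the receptor for macrophage colony-stimulating factor, averaged 2200 ± 50.02 CPM in libraries labelled ERMAP shRNA and 2002 ± 136 CPM in control libraries (the per-million count scaled with TMM factors, SD, n = 3 each). Of the 7, Fcgr1, a high-affinity receptor for IgG, was called and rose, at 89.0 ± 1.89 CPM in libraries labelled ERMAP shRNA and 28.6 ± 2.34 CPM in control libraries (SD, n = 3 each, log2 fold change 1.64, edgeR adjusted p = 0.000116). Cd14, a receptor for bacterial lipopolysaccharide, had a log2 fold change of 0.52 (edgeR adjusted p = 0.197), and the other 5 lay between -0.18 for Adgre1 and 0.14 for Csf1r. Mrc1, a mannose receptor of the same marker list, failed the filter with 29 counts over 6 libraries. Among the other lineages, summed T cell markers were at 2.32 to 4.13 CPM in libraries labelled ERMAP shRNA and 1.52 to 1.94 CPM in control libraries, nearly all of it Lck, with 5 of the 7 genes at 0. The dendritic cell list, given with Itgax below, was the higher of these lists in control libraries, and no other list passed 1.04 CPM. Their part in the results was not tested. Among the 6 libraries control replicate 1 was the one that deviated most.

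Itgax and Itgb7 showed the largest differences among the integrins, both toward lower levels in libraries labelled ERMAP shRNA, and both narrowly missed the threshold over all genes. The fitted level of Itgax, the αX chain of complement receptor 4, was 29.9% of control (95% interval 17.8% to 50.2%), and that of Itgb7, the β chain of the gut-homing receptor α4β7, was 57.0% of control (95% interval 45.0% to 72.1%). Itgam and Itgb2, the 2 chains of Mac-1, were also lower in every library labelled ERMAP shRNA, at fitted levels of 79.4% and 83.8% of control. The other 6 genes overlapped between the groups. In RNA from whole cultures, fewer cells that express a gene and less of its RNA per cell cannot be told apart.

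No integrin passed the test at an adjusted p under 0.05 in edgeR, where 1.01% of 12491 tested genes were called higher and 0.136% lower. Before adjustment, at p under 0.05, 4 of the 10 were lower, against 3.04% of all genes, and 0 were higher, against 3.71%. The groups did not overlap, with every library labelled ERMAP shRNA below every control library, for 4 of the 10, against 6.47% of all genes. The opposite held for 0 of the 10, against 7.74% of all genes. With control replicate 1 set aside, every library labelled ERMAP shRNA was lower for 5 of the 10, Itga5 being added, against 16.1% of all genes, and higher for Itga4 alone, against 16.8%. DESeq2 called Itgax and Itgb7 lower, 2 of 10 against 0.568% of all genes lower and 1.62% higher, and limma-voom called 0 of 10, with 1.02% of genes called higher and 0.128% lower. The median log2 fold change of the 10 was -0.23, against -0.01 over all tested genes. Fitted values were below 0 for 8 of the 10 and for 51.7% of all tested genes. The 10 were chosen with earlier results of these data known. The contrasts with all genes therefore describe these 10 and are no test of the family.

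Without control replicate 1, 3 of the 10 fell, namely Itgb2, Itgax and Itgb7, with 2.19% of all genes called lower and 2.67% higher in that fit. The same 3 fell when the counts were corrected for GC content per library (GC offsets), where 1.16% of all genes were called lower and 2.15% higher. Itgb7 alone fell with RLE scaling, where 0.144% of genes were called lower and 0.993% higher, and Itgax and Itgb7 fell without the filter on low counts, where these shares were 0.141% and 0.698%.

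Leaving out any other single library gave 0 calls among the 10. The shares of all genes called higher in those fits were 0.617%, 0.598% and 0.571% without replicates 1, 2 and 3 under the ERMAP shRNA label, and 0.752% and 0.706% without control replicates 2 and 3. The shares called lower in the same order were 0.0312%, 0.0310%, 0.0235%, 0.0862% and 0.0314%. None of the 10 was called either with library totals only (1.00% of genes higher, 0.144% lower), with a mean of at least 1 CPM as the filter (0.994% and 0.136%), by limma-trend on log2(FPKM + 1) (0.993% and 0.144%) or log2(FPKM + 0.1) (0.953% and 0.128%), or with a replicate block (0.648% and 0.0240%).

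**Figure D1:**
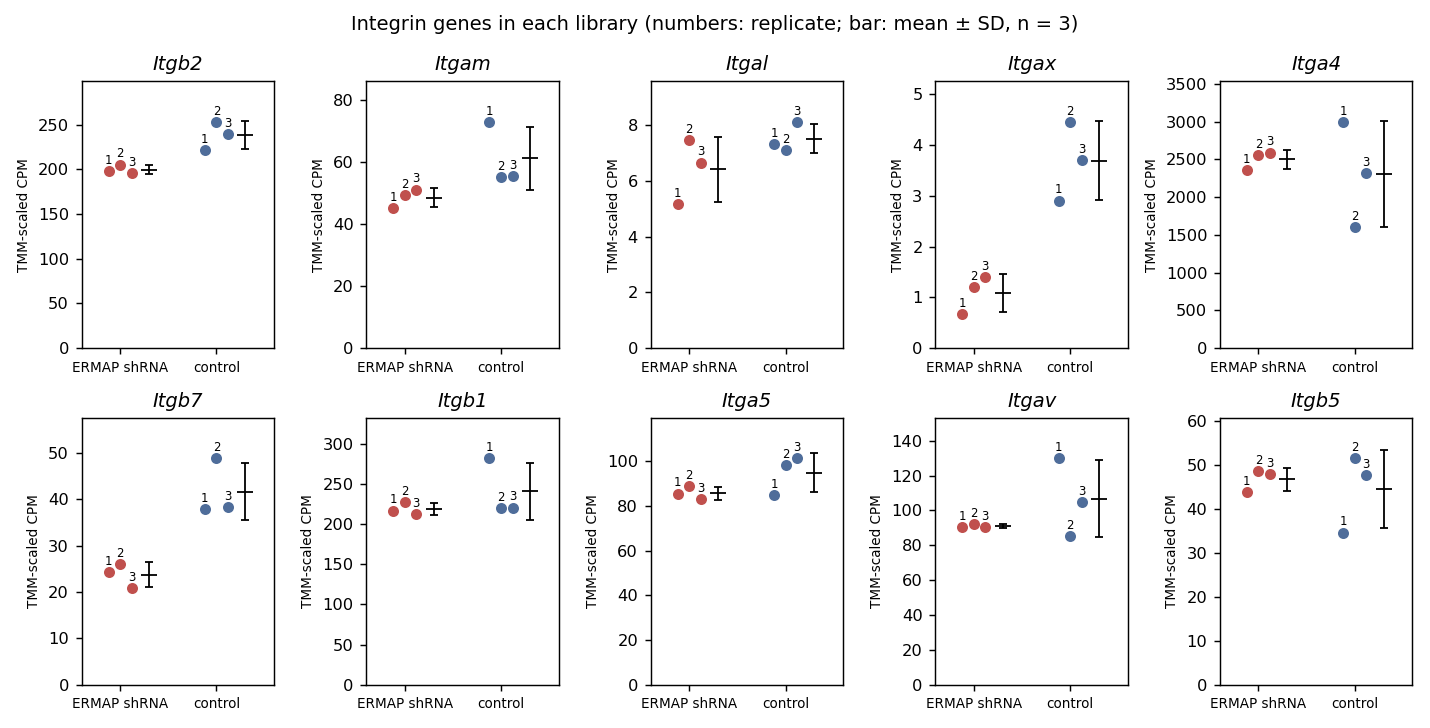
TMM-scaled CPM of the 10 integrin genes (vertical axis, from 0) in the 3 libraries labelled ERMAP shRNA (left) and the 3 control libraries (right), with the replicate number at each point and the mean ± SD as a bar. Itgb2, Itgam, Itgax and Itgb7 do not overlap between the groups, and control replicate 1 is the highest library for Itgam, Itga4, Itgb1 and Itgav and the lowest for Itgb5.

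To show the DNA next to the genes that differed most, the 250 bases before the RefSeq transcription start of Itgax and Itgb7 are given with those of Itgam, which lies 11.1 kb before Itgax on the same strand of chromosome 7. All 3 were read from RefSeq promoters of GRCm38.p6 (mm10), as chr7:128129300-128129549 on the plus strand for Itgax, chr15:102231936-102232185 on the minus strand for Itgb7 and chr7:128062390-128062639 on the plus strand for Itgam. They run 5′ to 3′, and capitals mark matches to GAGGAA, a core bound by the macrophage factor PU.1, or TGANTCA, an AP-1 site, on either strand. No match overlaps another.
Itgax: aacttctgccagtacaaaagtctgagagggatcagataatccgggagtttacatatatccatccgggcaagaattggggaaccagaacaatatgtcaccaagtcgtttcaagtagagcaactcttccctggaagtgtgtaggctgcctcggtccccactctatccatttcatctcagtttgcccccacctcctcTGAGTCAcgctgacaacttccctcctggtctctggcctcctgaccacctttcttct
Itgb7: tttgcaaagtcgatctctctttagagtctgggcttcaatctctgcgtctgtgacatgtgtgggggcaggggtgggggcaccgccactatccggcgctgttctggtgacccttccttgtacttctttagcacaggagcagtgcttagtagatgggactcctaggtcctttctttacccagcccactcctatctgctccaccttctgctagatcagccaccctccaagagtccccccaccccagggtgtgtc
Itgam: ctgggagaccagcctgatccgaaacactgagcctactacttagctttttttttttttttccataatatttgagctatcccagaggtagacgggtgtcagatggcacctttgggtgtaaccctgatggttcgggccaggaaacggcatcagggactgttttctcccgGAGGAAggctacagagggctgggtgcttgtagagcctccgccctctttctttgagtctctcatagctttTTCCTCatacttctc

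The Itgax window held 1 AP-1 match, TGAGTCA, starting 56 bases before the start, and no GAGGAA. The Itgam window held 2 GAGGAA matches, 1 on each strand, starting 84 and 15 bases before the start. The Itgb7 window held neither. Of the other integrin promoters searched, Itgav held 2 GAGGAA matches, Itga5 and Itgb1 held 1 each, and Itga4 and Itgb5 held 0. None of these held TGANTCA. Across 32851 promoters of the same length, 23.3% held GAGGAA and 6.75% held TGANTCA on either strand. The core of the interferon-stimulated response element, which is GAAA, 2 bases of any kind and GAAA, was searched too, is held by 2.98% of promoters, and was found in 0 of the 8 integrin promoters that matched by symbol. These are matches of letters and say nothing of binding.

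Itgb2 (ENSMUSG00000000290, chromosome 10, 77530252 to 77565708, plus strand) encodes the β2 chain that all leukocyte β2 integrins share. It had 198, 205 and 195 CPM in the libraries labelled ERMAP shRNA and 222, 253 and 239 CPM in the control libraries. The lowest control library, replicate 1, stood above the highest library labelled ERMAP shRNA. On the log2 scale the difference was -0.26 (95% interval -0.46 to -0.05, SE 0.09, edgeR adjusted p = 0.500). Without control replicate 1 it was -0.31 (edgeR adjusted p = 0.0028), and with GC offsets -0.29 (edgeR adjusted p = 0.0249). It was -0.21 without control replicate 2 (edgeR adjusted p = 0.596) and -0.26 in DESeq2 (adjusted p = 0.311).

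Itgam (ENSMUSG00000030786, chromosome 7, 128062640 to 128118491, plus strand) encodes αM or CD11b, a standard surface marker of myeloid cells. It had 45.2, 49.2 and 51.0 CPM in the libraries labelled ERMAP shRNA and 72.9, 55.0 and 55.4 CPM in the control libraries. Control replicate 1 was far above the other control libraries, which stood just above the libraries labelled ERMAP shRNA. The fitted log2 fold change was -0.33 (95% interval -0.65 to -0.02, SE 0.14, edgeR adjusted p = 0.671), and without control replicate 1 it was -0.19 (edgeR adjusted p = 0.231). Gm49368, a protein-coding gene of the annotation, shares 3450 of the 5024 exon bases of Itgam on the same strand. It was assigned 7 counts over the libraries labelled ERMAP shRNA and 0 over the control libraries. The counting program is not given, so whether reads in the shared bases were counted for Itgam, or left out as ambiguous, is unknown.

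Itgal (ENSMUSG00000030830, chromosome 7, 127296260 to 127335138, plus strand) encodes αL, the partner of β2 in LFA-1. It had 5.16, 7.45 and 6.65 CPM in the libraries labelled ERMAP shRNA and 7.33, 7.11 and 8.12 CPM in the control libraries. The groups overlapped through replicate 2 of the ERMAP shRNA group, and replicate 1 of that group was the lowest library. The log2 fold change was -0.22 (95% interval -0.65 to 0.20, SE 0.18, edgeR adjusted p = 0.937), and it was -0.089 without replicate 1 of the ERMAP shRNA group and -0.35 without its replicate 2.

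Itgax (ENSMUSG00000030789, chromosome 7, 128129547 to 128150657, plus strand) encodes αX or CD11c, used as a marker of dendritic cells and of some macrophages. Its counts were 9, 18 and 21 in the libraries labelled ERMAP shRNA and 42, 74 and 56 in the control libraries, the fewest of the 10 genes. On the CPM scale this was 0.672, 1.20 and 1.40 in the libraries labelled ERMAP shRNA and 2.90, 4.46 and 3.70 in the control libraries. All control libraries were above the highest library labelled ERMAP shRNA, and the lowest control library was replicate 1. On the log2 scale the difference was -1.74 (95% interval -2.49 to -0.995, SE 0.32, edgeR adjusted p = 0.0564). It was called lower in 5 of 17 alternatives, where its adjusted p ranged from 0.000287 to 0.247. Without control replicate 1 it was -1.89 (edgeR adjusted p = 0.000287). Library quality weights gave control replicate 1 a weight of 0.0903, against 0.772 to 3.26 for the other libraries. That fit and the one without control replicate 1 therefore reduce the same library and are not separate evidence. Zbtb46, a transcription factor used as a marker of dendritic cells, is part of a dendritic marker list. That list summed to 1.46 to 2.09 CPM in the libraries labelled ERMAP shRNA and 2.11 to 2.70 CPM in the control libraries. Of those 6 markers, 2 had 0 counts in every library and 1 passed the filter. The log2 fold change of that 1 was -0.14 in edgeR, with an unadjusted p not under 0.05. The part of the list in the Itgax values was not tested.

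Itgb7 (ENSMUSG00000001281, chromosome 15, 102215995 to 102231944, minus strand) had 24.4, 26.1 and 20.8 CPM in the libraries labelled ERMAP shRNA and 38.0, 48.8 and 38.3 CPM in the control libraries. The groups were well apart, and control replicate 1 lay close to control replicate 3. The fitted log2 fold change was -0.81 (95% interval -1.15 to -0.47, SE 0.15, edgeR adjusted p = 0.0517). It was called lower in 6 of 17 alternatives, where its adjusted p ranged from 1.455e-05 to 0.314. Without control replicate 1 it was -0.88 (edgeR adjusted p = 1.455e-05). As for Itgax, the fits that reduce control replicate 1 are not separate evidence.

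Itga4 (ENSMUSG00000027009, chromosome 2, 79255426 to 79333123, plus strand) encodes α4, which pairs with β1 or β7. It had 2356, 2559 and 2588 CPM in the libraries labelled ERMAP shRNA and 2997, 1603 and 2315 CPM in the control libraries. The control libraries lay on both sides of the libraries labelled ERMAP shRNA, with the widest spread of the 10 genes in CPM. The log2 fold change was 0.12 (95% interval -0.35 to 0.59, SE 0.20, edgeR adjusted p = 0.951), and it was 0.35 without control replicate 1 and -0.091 without control replicate 2. Cerkl shares 1124 exon bases with Itga4 on the opposite strand and had 132 counts over 6 libraries, against 213881 for Itga4, and the strand setting of the counting is not given.

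Itgb1 (ENSMUSG00000025809, chromosome 8, 128685654 to 128733200, plus strand) encodes β1, the most widely shared beta chain. It had 217, 227 and 212 CPM in the libraries labelled ERMAP shRNA and 281, 219 and 220 CPM in the control libraries. Control replicate 1 alone stood above the ERMAP shRNA range. On the log2 scale the difference was -0.14 (95% interval -0.41 to 0.14, SE 0.12, edgeR adjusted p = 0.937), and -0.01 without control replicate 1.

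Itga5 (ENSMUSG00000000555, chromosome 15, 103344286 to 103366763, minus strand) encodes α5, the alpha chain of the fibronectin receptor. It had 85.5, 88.8 and 83.0 CPM in the libraries labelled ERMAP shRNA and 85.0, 98.2 and 101 CPM in the control libraries. The groups overlapped through control replicate 1. The fitted log2 fold change was -0.15 (95% interval -0.38 to 0.09, SE 0.10, edgeR adjusted p = 0.937), and without control replicate 1 it was -0.22 (edgeR adjusted p = 0.0736) and without control replicate 3 -0.094. The limma-voom fit with library quality weights called it lower (-0.24, adjusted p = 0.0202), with 3.44% of all genes called lower and 3.90% higher in that fit.

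Itgav (ENSMUSG00000027087, chromosome 2, 83724397 to 83806916, plus strand) encodes αv, which binds vitronectin and other proteins with an RGD motif. It had 90.6, 92.2 and 90.4 CPM in the libraries labelled ERMAP shRNA and 130, 85.5 and 105 CPM in the control libraries. The libraries labelled ERMAP shRNA were close together inside the control range. The log2 fold change was -0.23 (95% interval -0.57 to 0.12, SE 0.15, edgeR adjusted p = 0.929), and it was -0.07 without control replicate 1 and -0.37 without control replicate 2.

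Itgb5 (ENSMUSG00000022817, chromosome 16, 33829665 to 33949338, plus strand) encodes β5, which pairs with αv. It had 43.7, 48.6 and 47.9 CPM in the libraries labelled ERMAP shRNA and 34.6, 51.4 and 47.7 CPM in the control libraries. The libraries labelled ERMAP shRNA lay inside the control range. On the log2 scale the difference was 0.07 (95% interval -0.29 to 0.43, SE 0.16, edgeR adjusted p = 0.957), and its sign turned to -0.091 without control replicate 1, while it was 0.18 without control replicate 2.

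**Figure D2:**
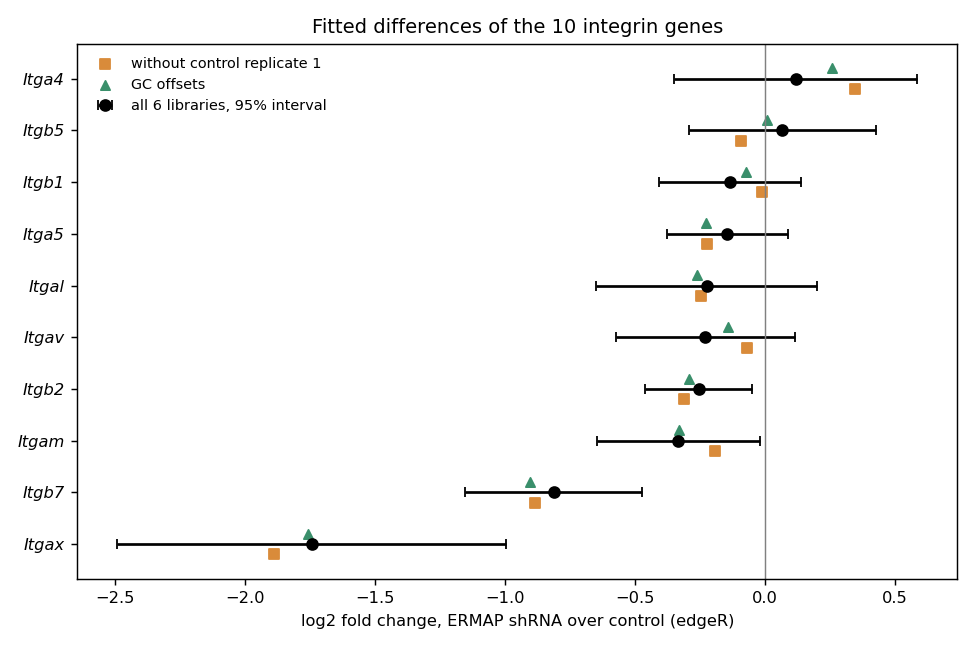
Log2 fold change of libraries labelled ERMAP shRNA over control libraries for the 10 integrin genes (horizontal axis), from edgeR on all 6 libraries with 95% intervals (circles), without control replicate 1 (squares) and with GC offsets (triangles). Itgax at -1.74 and Itgb7 at -0.81 lie farthest from 0, and the squares of Itga4 and Itgb5 move in opposite directions.

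Control replicate 1 deviated from the other control libraries by amounts that ran with the GC content of the gene. Mitochondrial transcripts made up 1.71% to 2.18% of counts in the libraries labelled ERMAP shRNA, and 3.69%, 1.87% and 1.89% in control replicates 1, 2 and 3. Itga4, with a GC content of 41.1% in its longest transcript, was 0.64 higher on the log2 scale in control replicate 1 than the mean of control replicates 2 and 3. Itgav at 43.5% GC was 0.45 higher, Itgb1 at 44.8% GC 0.36 higher and Itgam at 48.9% GC 0.40 higher. The 6 genes with a GC content from 51.6% to 58.0% were all lower in control replicate 1, from -0.05 for Itgal to -0.52 for Itgb5. Spearman's rho across the 10 genes was -0.78 and across 10765 tested protein-coding genes -0.77, a description in which genes share the same libraries and are not replicates. The values of Itgax (-0.46) and Itgb7 (-0.19) in control replicate 1 lay toward the libraries labelled ERMAP shRNA, and those of Itgam lay away from them.

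**Figure D3:**
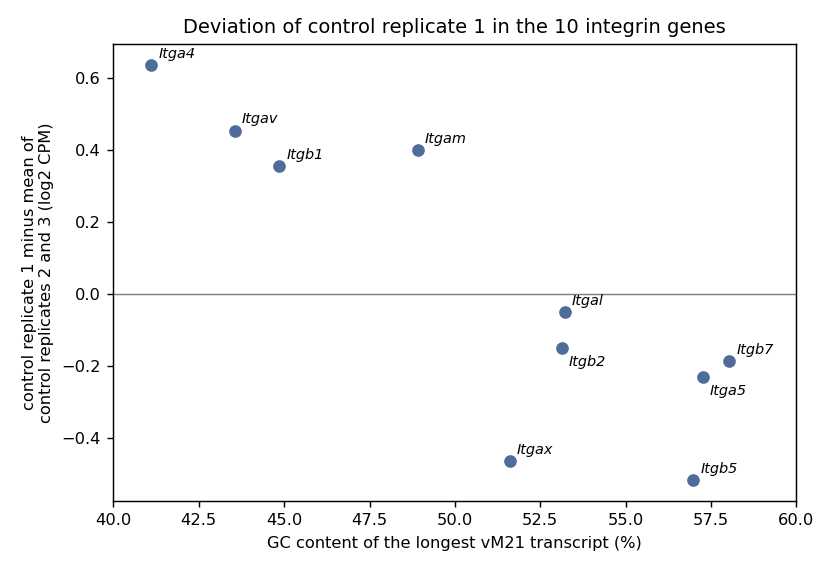
Deviation of control replicate 1 from the mean of control replicates 2 and 3 (vertical axis, log2 CPM) against the GC content of the longest transcript (horizontal axis, percent) for the 10 integrin genes. The 4 genes below 50% GC lie at 0.36 to 0.64 and the other 6 lie below 0.

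Levels per length differed over a wide range. On the deposited FPKM scale (fragments scaled for gene length and library size), Itga4 was the most abundant in both groups, at 178 ± 9.46 FPKM in libraries labelled ERMAP shRNA and 163 ± 48.9 FPKM in control libraries (SD, n = 3 each). It was 2.74 times the FPKM of Itgb2 in libraries labelled ERMAP shRNA and 2.11 times in control libraries. Itgb2 at 65.0 ± 1.76 FPKM in libraries labelled ERMAP shRNA and 77.3 ± 5.32 FPKM in control libraries, and Itgb1 at 53.3 ± 1.94 FPKM and 58.4 ± 8.40 FPKM in the same order, came next. Itgax was the lowest, at 0.226 ± 0.078 FPKM in libraries labelled ERMAP shRNA and 0.761 ± 0.162 FPKM in control libraries, below Itgal at 0.972 ± 0.179 FPKM and 1.13 ± 0.083 FPKM.

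In the libraries labelled ERMAP shRNA the order from highest to lowest was Itga4, Itgb2, Itgb1, Itga5, Itgb5, Itgam, Itgb7, Itgav, Itgal and Itgax. There the ranges of neighbours overlapped only between Itgam and Itgb7 and between Itgb7 and Itgav. In the control libraries Itgb7 stood in place 5, ahead of Itgb5, Itgam and Itgav. There the ranges of neighbours overlapped from Itga5 down to Itgav, and the other neighbours were apart. The FPKM of the 10 genes summed to 340, 365 and 357 in the libraries labelled ERMAP shRNA and to 419, 322 and 366 in the control libraries, with overlap. The FPKM of Itgam divides by 5024 bases, of which 3450 are shared with Gm49368. If reads in the shared bases were left uncounted, the level and place of Itgam are understated.

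**Figure D4:**
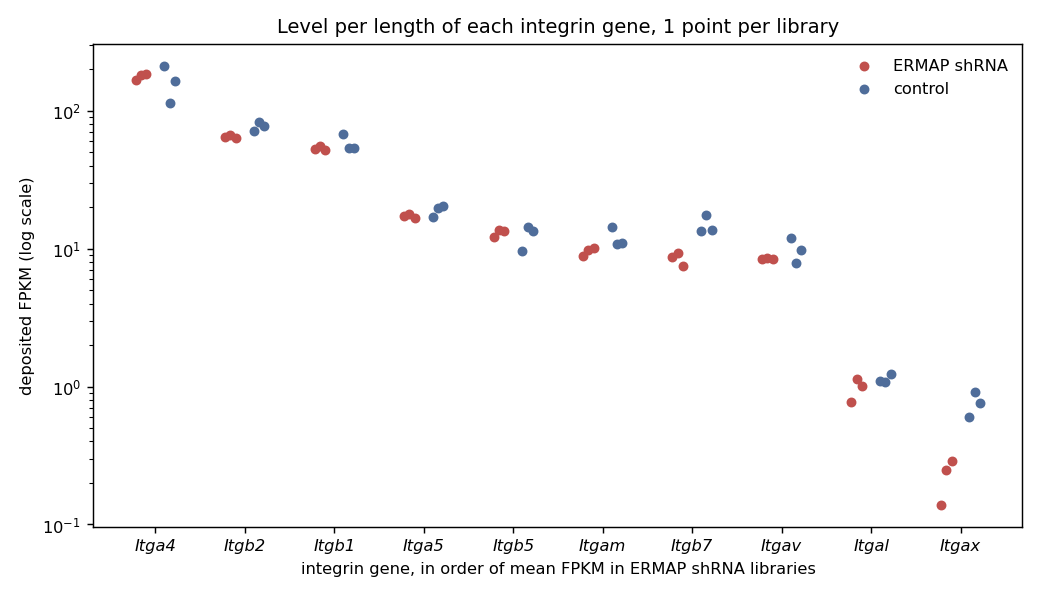
Deposited FPKM (vertical axis, log scale) of the 10 integrin genes in each of the 3 ERMAP shRNA and 3 control libraries, ordered by the mean in libraries labelled ERMAP shRNA. Itga4 lies above 100 FPKM in every library, and Itgax lies below 1 FPKM in every library.

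Balances between alpha and beta chains were compared on FPKM with exact two-sided permutation tests over 3 against 3 libraries, whose smallest possible p is 0.1. If reads in the bases that Itgam shares with Gm49368 were left uncounted, balances and shares that include Itgam would be off. The 3 β2-specific alpha chains together (Itgam, Itgal and Itgax) made 0.153, 0.166 and 0.179 FPKM per FPKM of Itgb2 in the libraries labelled ERMAP shRNA and 0.223, 0.156 and 0.166 in the control libraries. These overlapped (exact permutation p = 0.6), and the difference of the means, -0.016, turned to 0.0049 without control replicate 1. The alpha chains Itga4, Itga5 and Itgav made 3.66, 3.76 and 4.04 FPKM per FPKM of Itgb1 in the libraries labelled ERMAP shRNA and 3.53, 2.65 and 3.63 in the control libraries. These did not overlap (exact permutation p = 0.1), by a margin that is small beside the control spread. The difference of the means was 0.55, and it was 0.24 without control replicate 2, the lowest library, and 0.68 without control replicate 1.

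Itgb7, which like Itgb1 pairs with α4, made 14.2%, 14.5% and 12.6% of the summed FPKM of Itgb1 and Itgb7 in the libraries labelled ERMAP shRNA and 16.6%, 24.7% and 20.4% in the control libraries. The lowest control share, that of replicate 1, was above all ERMAP shRNA shares. Within the β2-specific alpha chains, Itgax made 1.41%, 2.23% and 2.54% in the libraries labelled ERMAP shRNA and 3.73%, 7.16% and 5.91% in the control libraries, also without overlap. Itgam made 89.0% ± 1.56 of that sum in libraries labelled ERMAP shRNA and 86.2% ± 2.80 in control libraries (SD, n = 3 each). These last 3 shares were chosen after the values were seen and have no test. Of the shares in the FPKM sum of all 10 genes, 10 tests were run. Itgam (2.71% ± 0.110 in ERMAP shRNA, 3.26% ± 0.234 in control), Itgax (0.063% ± 0.021 and 0.212% ± 0.072 in the same order) and Itgb7 (2.41% ± 0.271 and 4.14% ± 1.15) reached the smallest p of 0.1 (exact permutation, SD, n = 3), and the other 7 gave an exact permutation p of 0.2 to 0.8. Without control replicate 1 the differences of those 3 shares were -0.48, -0.18 and -2.19 percentage points, against -0.55, -0.15 and -1.73 with it. The Itgb7 difference was -1.08 percentage points without control replicate 2.

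Of 16 other integrin subunits, 4 passed the filter and 0 were called by edgeR, DESeq2 or limma-voom. At p under 0.05 before adjustment in edgeR, 1 was higher, against 3.71% of all genes, and 0 lower, against 3.04%. The higher one was Itga10, an alpha chain of collagen receptors, at 1.29 ± 0.154 CPM in libraries labelled ERMAP shRNA and 0.528 ± 0.208 CPM in control libraries (SD, n = 3 each, edgeR adjusted p = 0.321). The most abundant of them by FPKM was Itga6, the α6 chain of laminin receptors, at 10.05 ± 1.37 CPM in libraries labelled ERMAP shRNA and 8.07 ± 1.07 CPM in control libraries (SD, n = 3 each, edgeR adjusted p = 0.894). Of the 16, 4 had 0 counts in every library (Itga1, Itga3, Itgb6 and Itgb8), which allows up to 0.0335 CPM for each at 3 counts over the 6 libraries. Itgb3, the β3 chain of the osteoclast vitronectin receptor, had 5 counts in the libraries labelled ERMAP shRNA and 2 in the control libraries. Itgae, the αE chain that pairs with β7 and binds E-cadherin, had 35 counts in the libraries labelled ERMAP shRNA and 46 in the control libraries (edgeR adjusted p = 0.938).

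Genes that switch integrins on and link them to actin showed no call in edgeR. Of 27 such genes, 23 passed the filter, with a median log2 fold change of 0.02, and limma-voom called 0 as well. At p under 0.05 before adjustment in edgeR, 0 were higher, against 3.71% of all genes, and 1 lower, against 3.04%. Actn1, α-actinin, which crosslinks actin at adhesion sites, was that gene, at 66.3 ± 4.28 CPM in libraries labelled ERMAP shRNA and 92.7 ± 7.32 CPM in control libraries (SD, n = 3 each). Its log2 fold change was -0.48 (SE 0.10, edgeR adjusted p = 0.101). DESeq2 called it (adjusted p = 0.00506), as did edgeR without control replicate 1 (adjusted p = 1.745e-05). Actn1 was named after its values were seen. Vasp, an actin regulator and the most abundant of the list by FPKM, averaged 431 ± 51.6 CPM in libraries labelled ERMAP shRNA and 359 ± 104 CPM in control libraries (SD, n = 3 each, edgeR adjusted p = 0.937). Fermt3, the kindlin of blood cells, and Tln1, talin, had log2 fold changes of 0.14 and 0.15 (edgeR adjusted p = 0.938 and 0.937), and were also picked after their values were seen.

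Of 17 kinases, docking proteins and small GTPases downstream of integrins, 16 passed the filter and 0 were called by edgeR, DESeq2 or limma-voom. The median log2 fold change was 0.01. At p under 0.05 before adjustment in edgeR, 1 was higher, against 3.71% of all genes, and 1 lower, against 3.04%. The most abundant by FPKM was Rac2, the Rac of blood cells, at 544 ± 25.6 CPM in libraries labelled ERMAP shRNA and 573 ± 54.3 CPM in control libraries (SD, n = 3 each, edgeR adjusted p = 0.948). The gene with the negative difference was Vav3, an exchange factor for Rac, at a log2 fold change of -0.32 (SE 0.13, edgeR adjusted p = 0.702).

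Of 24 ligand names, 23 were in the table and 9 genes passed the filter. Calls numbered 0 in edgeR, DESeq2 and limma-voom, and the median log2 fold change was 0.30, against -0.01 over all tested genes. At p under 0.05 before adjustment in edgeR, 0 were lower, against 3.04% of all genes, and 2 higher, against 3.71%. Those 2 were Spp1 and C3, the complement protein whose cleaved form Mac-1 binds, which averaged 1.96 ± 0.637 CPM in libraries labelled ERMAP shRNA and 1.02 ± 0.211 CPM in control libraries (SD, n = 3 each, edgeR adjusted p = 0.540). Spp1, osteopontin, which binds αv and α4 integrins and is secreted by macrophages, averaged 954 ± 8.78 CPM in libraries labelled ERMAP shRNA and 697 ± 131 CPM in control libraries (SD, n = 3 each, edgeR adjusted p = 0.332). Its log2 fold change was 0.45 (SE 0.13), every library labelled ERMAP shRNA stood above every control library, and without control replicate 1 it was called higher (0.61, edgeR adjusted p = 2.579e-07). Icam1, the counter-receptor of LFA-1 and Mac-1, was at 0.32 (SE 0.15, edgeR adjusted p = 0.777) and Mfge8, which bridges αv integrins to dying cells, at -0.21 (SE 0.14, edgeR adjusted p = 0.937). Mfge8 was called lower without control replicate 1 (-0.35, edgeR adjusted p = 0.00389). Fn1, fibronectin, and Vcam1, the ligands of α5β1 and α4β1, each had 0 counts in all 6 libraries, and Madcam1, the ligand of α4β7, had 1.

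Of 9 tetraspanins and CD47, which lie beside integrins in the membrane, 8 passed the filter and 0 were called by edgeR, DESeq2 or limma-voom. At an unadjusted p under 0.05 in edgeR, 0 were higher, against 3.71% of all genes, and 2 lower, Cd9 and Cd63, against 3.04%. The median log2 fold change of the list was -0.05. Cd9, the most abundant by FPKM, averaged 283 ± 1.64 CPM in libraries labelled ERMAP shRNA and 347 ± 45.2 CPM in control libraries (SD, n = 3 each), a log2 fold change of -0.30 (SE 0.11, edgeR adjusted p = 0.555). Cd63, a tetraspanin of late endosomes, was at -0.26 (SE 0.09, edgeR adjusted p = 0.443) and was called lower without control replicate 1 (-0.24, edgeR adjusted p = 0.0371).

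The genes whose levels across the 6 libraries were most like those of Itgb7, the integrin with the smallest unadjusted p, were Baiap2, Pltp, Adgre5, Anpep and Flnc. Likeness was the root mean square difference of log2 CPM after centring each gene on its own mean, among 8931 genes with a mean of at least 10 CPM, and ran from 0.0842 for Baiap2 to 0.164 for Flnc. Baiap2, an actin adaptor, averaged 14.8 CPM in libraries labelled ERMAP shRNA and 24.9 CPM in control libraries, a log2 fold change of -0.75. The adhesion receptor Adgre5 (CD97) was at -0.92, the aminopeptidase Anpep at -0.91, the phospholipid transfer protein Pltp at -0.71 and the filamin Flnc at -0.75. Since these genes were picked for following Itgb7 over the same 6 libraries, their lower values in the libraries labelled ERMAP shRNA were fixed by the choice and are given with no test.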

How the data were processed

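The deposited files hold whole-number read counts per gene, which the authors made from HISAT2 alignments to mm10, per the submitters' processing notes, and FPKM values deposited per library and as group means. Not given in the sources used here are the counting program, its strand setting, the annotation release and the versions, so their effect on these values is unknown. The deposited FPKM values are the counts over gene length and over a number fixed for each library, which lay within -0.154% to 1.20% of the summed count. Of the gene identifiers, 54409 are in GENCODE vM21, 98.3% of them at the same coordinates, including all 10 members. Column names show the group and a number, and replicates are named by that number, which could not be tied to single samples.

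Differential expression used edgeR 4.0.16 in R 4.3.3 (quasi-likelihood F test, robust, TMM scaling, filterByExpr with 10 as the lowest count), and p-values were adjusted by Benjamini-Hochberg over 12491 genes. Called means an adjusted p below 0.05. Percent of control is the fitted fold change on a linear scale, and intervals are 95%. Alternatives were DESeq2 1.42.0, limma 3.58.1 (voom, library weights, limma-trend on FPKM with 1 or 0.1 added before log2), RLE and total-count scaling, 2 filters, GC offsets, blocking on the replicate number, and each library left out in turn. Libraries of the same group all differed by more than sampling noise.

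Members and lists were chosen with earlier results of these data known. The naming rule took all 10 members, Ermap, each called member of a list or else its most abundant tested member, and the 5 genes most like the member with the smallest p. Genes named outside it were picked after their values were seen, which holds for C3, Cd14, Adgre1, Fcgr1, Csf1r, Itga10, Mrc1, Lck, Zbtb46, Vav3, Icam1, Mfge8, Fn1, Vcam1, Madcam1, Itga1, Itga3, Itgb3, Itgb6, Itgb8, Itgae, Cd63, Actn1, Fermt3 and Tln1, and for overlapping genes. The values of 1 listed gene are not reported here. Promoter sequences came from RefSeq and matched 8 of 10 members.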

Additional observations from a re-analysis of the deposited data

How the results depend on the processing

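Of 170 refitted log2 fold changes of the 10 integrins, 167 kept their sign. Values that turned were Itgb5 at -0.058 with library quality weights and -0.091 without control replicate 1, and Itga4 at -0.091 without control replicate 2. Itgb7 was called lower with RLE scaling factors (-0.81, adjusted p = 0.0499), DESeq2 (-0.81), no filter on low counts (-0.81), library quality weights (-0.80) and GC offsets (-0.90), and Itgax with DESeq2 (-1.75), no filter (-1.74), library quality weights (-1.89) and GC offsets (-1.76). Itgb2 was called with library quality weights (-0.29) and GC offsets (-0.29), and Itga5 with library quality weights (-0.24). Leaving out 1 library gave -0.89 to -0.69 for Itgb7, -1.96 to -1.50 for Itgax, -0.31 to -0.21 for Itgb2, -0.091 to 0.18 for Itgb5 and -0.091 to 0.35 for Itga4, and for calls among the 10 it gave 0 to 3 lower, the 3 without control replicate 1. Members called lower numbered 1 with RLE scaling factors, 2 with DESeq2, 2 with no filter, 4 with library quality weights and 3 with GC offsets. The shares of all genes called lower in the same order were 0.144%, 0.568%, 0.141%, 3.44% and 1.16%. No member was called higher in any fit. On log2(FPKM + 1), Itgax was at -0.52, since the added 1 exceeds its FPKM.

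Against 126 genes higher and 17 lower in all, DESeq2 gave 202 and 71, library quality weights 487 and 430, GC offsets 268 and 145, and no filter 32 lower. Leaving out 1 library gave 73 to 342 higher and 3 to 280 lower, with 342 and 280 without control replicate 1. The machinery and ligand lists held 4, 23, 16, 9 and 8 tested genes, with 0 called in edgeR. Among them library quality weights called 4 higher and 4 lower, against 3.90% and 3.44% of all genes. GC offsets called 2 higher and 3 lower, against 2.15% and 1.16%, and DESeq2 1 lower, against 0.568%. Leaving out 1 library called 0 to 2 higher and 0 to 3 lower. The most were again without control replicate 1, where 2.67% and 2.19% of all genes were called. With the replicate block, 81 genes were higher and 3 lower, and 0 integrins were called (adjusted p = 0.0999 for Itgb7 and 0.0897 for Itgax). The deviations of same-numbered libraries from their group means correlated at -0.13, -0.28 and 0.18 over 12491 genes. Control replicate 1 weighs heavily in every control deviation, so these values cannot decide whether the numbers pair the libraries. The cause of the shifts in calls was not tested. Ratios and shares were recomputed with each library left out and from counts over gene length. Leaving out 1 of 3 libraries cannot move a group mean by that group's SD, and counts over length repeat the FPKM ratios. That all shifts stayed below the larger group SD was therefore fixed in advance and is no sign of stability. Without control replicate 1, differences turned in sign for the β2-specific alpha chains per Itgb2 (0.0049) and the Itgb5 share (-0.36 against 0.22). The difference of the Itga5 share turned without control replicate 2 (0.070 against -0.37). Itgax, with 9 to 74 counts per library, and Itgal, with 69 to 123, rest on few reads.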
